A study of Mus musculus with 6 samples.

Results

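The death-associated protein kinases were followed through Dapk1, Dapk2 and Dapk3, 3 genes of the 13052 with a symbol that were tested in these arrays. Dapk2 was chosen by its measured rise with a GSK-3 inhibitor, which was among the largest in these same arrays, and Dapk1 and Dapk3 were added as its paralogues and not for their values. All 3 genes were found, each through 1 probe of the 41174 non-control probes, and all 3 probes passed the filter on dim spots.

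The data are 6 one-colour Agilent arrays of total RNA from primary astrocyte cultures, made from the striatum and cortex of wild-type C57BL/6J mouse pups 1 day old, with 2 arrays in each of 3 groups. Washout cultures received 1 µM Ro3303544, an inhibitor of GSK-3, for 48 h from 13 days in vitro, were kept without it for another 48 h and were harvested at 17 days in vitro. Ro cultures received the same dose for 48 h and were harvested at 15 days. Control cultures, also harvested at 15 days, were kept in medium with 10% serum by their titles, while the treatment text speaks of DMSO. Serum was at 10% in all 3 groups. All groups had been exposed to 5 µM cytosine arabinoside, which kills dividing cells, for 2 days before treatment, and the labels put Iba1-positive microglia below 1% of cells. By phosphorylating beta-catenin GSK-3 keeps this coactivator scarce, and inhibitors of the kinase switch on Wnt target genes.

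The death-associated protein kinases are serine/threonine kinases first linked to programmed cell death, autophagy, membrane blebbing and control of the actomyosin cytoskeleton. Dapk1 encodes a large protein that carries, besides the kinase and calmodulin-binding domains, ankyrin repeats and a death domain, and in brain it is known for its part in neuronal death after ischaemia. Dapk2 encodes a short calmodulin-regulated kinase that is best known in granulocytes and other blood cells. Dapk3, also called ZIP kinase, lacks the calmodulin-binding domain, carries a leucine zipper and phosphorylates the regulatory light chain of myosin.

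The stretches just upstream of Dapk2 and Dapk1 are shown because these 2 genes moved in opposite directions with Ro. Each is the 250 bases before the annotated start on the plus strand in RefSeq's GRCm38.p6, written 5′ to 3′ in lower case. The Dapk2 window is chr9:66157976-66158225 and the Dapk1 window is chr13:60601961-60602210. Capitals mark CTTTG or its reverse complement CAAAG, the core of the site bound by TCF/LEF factors, the nuclear partners of beta-catenin.
Dapk2 upstream: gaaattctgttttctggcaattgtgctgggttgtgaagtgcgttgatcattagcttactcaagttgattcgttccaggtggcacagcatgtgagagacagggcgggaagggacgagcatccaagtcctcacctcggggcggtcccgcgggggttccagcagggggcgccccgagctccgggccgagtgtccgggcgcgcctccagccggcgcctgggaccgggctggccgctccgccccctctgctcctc
Dapk1 upstream: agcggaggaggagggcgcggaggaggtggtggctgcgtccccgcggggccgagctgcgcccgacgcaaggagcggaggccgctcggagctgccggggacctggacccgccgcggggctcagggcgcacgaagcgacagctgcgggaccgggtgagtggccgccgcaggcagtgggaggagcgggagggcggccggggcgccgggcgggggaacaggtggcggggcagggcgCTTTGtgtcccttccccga
The Dapk2 window held 0 matches to the core on either strand, and the Dapk1 window held 1. Of all 32851 RefSeq windows of the same length, 48.6% held the core. The longer motifs CTTTGAA, then CTTTGAT, further CTTTGTA and lastly CTTTGTT, each of which contains the core, were searched on both strands and had 0 matches in the Dapk2 and Dapk1 windows, against 14.8% of all windows with at least 1. RefSeq lists 3 windows for Dapk3 on chromosome 10, which held 0 of the longer motifs, and 1 of them held the core. Both printed windows were rich in G and C, at 65.2% for Dapk2 and 78.4% for Dapk1 against a median of 52.4% over all windows, with 20 and 33 CpG dinucleotides against a median of 6. A match or its absence describes these letters only.

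Levels are given as processed intensity, the spot brightness after the scanner software's background correction, and as that intensity divided by the array's own 75th percentile, on the log2 scale unless a linear level is named. The 75th percentile lay between 631 and 807, and the share of probes well above background was 60.4% to 65.2%. Replicates correlated across the tested features at r = 0.992 in washout, 0.996 in Ro and 0.995 in control. All 10 astrocyte markers were above background on all 6 arrays, which fits the labelled cell type, and none of 8 granulocyte markers with a named probe passed the filter. Slide 1 carried the Ro and control arrays and slide 2 the washout arrays, so that washout, slide and the later harvest cannot be told apart. Whether replicate cultures stemmed from independent preparations is not given by the labels, and p-values measure the spread between these arrays only. The smallest two-sided p that exact permutation allows with 2 arrays a side is 0.333, and every call below rests on the spread that limma pooled over the arrays.

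Dapk2 was bright under Ro and near the edge of detection both after washout and in control. Its probe (A_51_P126198) had processed intensities of 48.6 and 50.5 on the washout arrays, 3170 and 2924 on the Ro arrays, and 42.0 and 33.0 on the control arrays. Both Ro arrays stood far above the other 4 with no overlap, and both washout arrays were slightly above both control arrays. The dim values were real detections by the scanner software's own call, since the spot was well above background on all 6 arrays. They were 1.78 and 1.89 times the lowest intensity that passed this call on the washout arrays, and 2.77 and 1.97 times on the control arrays. On the Ro arrays the same ratio was 172 and 132.

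Relative to the 75th percentile, the linear level of Dapk2 averaged 0.0643 ± 0.00067 in washout, 3.84 ± 0.127 in Ro and 0.0541 ± 0.0025 in control (SD, n = 2 each). Ro exceeded control by 6.15 ± 0.07 on the log2 scale, or 70.9-fold. This is the value for which the gene was chosen, and it is given as a description without a test. Its fitted difference stood 11th of 20091 features, but 5 of the 6 features beside it in that order, Trpm1 and Neurog2 among them, were not well above background in control and have no exact rise. Among the 18668 features well above background on all Ro and control arrays Dapk2 was 4th, after Sp5 (8.23) and a pair of features without a symbol, and before Rnf43 (5.98) and Notum (5.96). Normexp background correction of the median signals with an offset of 50, which raises dim values by construction, put the rise at 4.63.

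After washout Dapk2 was 59.7-fold lower than in Ro, a difference of -5.90 ± 0.07. The Ro arrays of this comparison are those by which the gene was chosen, so that this value too is a description without a test. In the whole comparison 41.5% of all features were called and 20.1% were called lower. Washout exceeded control by 0.25 ± 0.07 (1.19-fold, 95% interval 0.06 to 0.44), which did not pass the test (adjusted p = 0.105, unadjusted p = 0.0196), although both washout arrays lay above both control arrays. With 10.1% of features called in this last comparison, 4.13% as higher, Dapk2 was 2987th from the highest of the 18023 features well above background on all washout and control arrays. The control arrays had also entered the choice of the gene.

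Granulocyte markers were at or below the limit of detection beside this rise. Of the 8 with a named probe, S100a8, Elane, Csf3r and Camp were not well above background on any array, and none of the 8 passed the filter. Of 10 microglia and macrophage markers tested, 5 were lower in Ro than in control and 0 higher, beside 22.7% and 19.4% of all features. The linear levels of these 10 markers were also summed. In multiples of the array's 75th percentile, the sums came to 12.5 to 13.7 in washout, 8.19 to 10.6 in Ro and 12.4 to 12.8 in control. Of 2 endothelial markers tested, Kdr passed as higher and Flt1 as lower in Ro, both named after their values were seen, and Pecam1 was not above background on any array. Their summed level was 1.01 to 1.11 in washout, 2.97 to 3.23 in Ro and 0.953 to 1.03 in control, and the part of these cells in the Dapk2 values was not tested. A list of Wnt feedback targets, the genes that beta-catenin induces in many tissues, rose with Dapk2. In Ro against control 10 of 10 tested were called higher (median 5.47), where 19.4% of all features were. In washout against Ro 10 of 10 were called lower (median -5.30), where 20.1% were. Of the 11 listed genes, Dkk1 was not above background on any array and was not tested. Only 8 of the 10 tested were well above background on all 6 arrays. Apcdd1 passed the filter only through Ro, the group where it is high, so that the filter favoured its call as higher in Ro. In washout against control 4 of the 10 were still called higher and 1 lower (median 0.33), where 4.13% and 5.97% of all features were. The gene called lower was Apcdd1, above background on no washout array and 1 of 2 control arrays, so that its call stands for no measured fall. The transcription factor gene Sp5 was 4.06-fold higher in washout than in control (limma, adjusted p = 0.0033). In bulk RNA, a change in the number of cells of a type and a change in RNA per cell cannot be told apart.

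Dapk1, the large family member, moved the other way and by far less. Its probe (A_52_P37826) had processed intensities of 1154 and 1185 on the washout arrays, 623 and 620 on the Ro arrays, and 1108 and 969 on the control arrays. The Ro arrays were the lowest and did not overlap with either other group. Scaled to the array, its log2 level was 0.60 and 0.60 in washout, -0.37 and -0.33 in Ro, and 0.56 and 0.62 in control, so that the washout values lay between the control values.

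In Ro the gene was 1.92-fold lower than in control, a difference of -0.94 ± 0.07 (95% interval -1.12 to -0.77, limma, adjusted p = 0.00067). Of the 2 paralogues tested in this comparison, Dapk1 passed and Dapk3 did not, where 42.1% of all features were called and 22.7% were called lower. It was 1232nd from the lowest of the 18668 features well above background on all Ro and control arrays. After washout Dapk1 was 1.94-fold higher than in Ro, by 0.95 ± 0.07 (95% interval 0.78 to 1.13, adjusted p = 0.00061), beside 21.4% of features called higher in that comparison. Washout and control differed by 0.011 ± 0.068 with an interval of -0.16 to 0.18 (adjusted p = 0.936). The spot of washout 2 had a local background of 34 against an array median of 27, higher than at 99.2% of the spots on that array. Without this array Dapk1 was still higher in washout than in Ro, by 0.95 (adjusted p = 0.0043).

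Markers of several cell types moved in the same direction as Dapk1. Their counts in Ro against control stand beside 22.7% called lower and 19.4% called higher among all features. Of 5 ependymal markers 5 were lower in Ro than in control, with a summed level of 48.5 to 53.3 in washout, 16.1 to 18.8 in Ro and 49.0 to 49.2 in control. All 4 tested markers of oligodendrocyte precursors were lower in Ro, at 14.95 to 15.8 in washout, 6.04 to 6.05 in Ro and 24.2 to 24.5 in control, and Gpr17 was not above background on any array. Of 7 pericyte and smooth muscle markers 5 were lower and 1 higher, at 428 to 441 in washout, 211 to 213 in Ro and 554 to 607 in control, with Abcc9 not above background. Of the 10 astrocyte markers 6 were lower and 2 higher, at 220 to 238 in washout, 181 to 191 in Ro and 227 to 238 in control. Of 7 neuronal markers tested, 4 were lower and 2 higher, at 14.5 to 14.99 in washout, 8.71 to 9.27 in Ro and 14.9 to 15.2 in control, with Snap25 and Slc17a6 not above background. Of 5 oligodendrocyte markers, 1 was lower and 1 higher, at 8.38 to 10.1 in washout, 8.53 to 10.3 in Ro and 7.01 to 7.79 in control, with Mog not above background. The part of these cell types in the Dapk1 result was not tested.

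Dapk3, the family member with a leucine zipper, was level between Ro and control and lower after washout. Its probe (A_51_P493285) had processed intensities of 156 and 185 on the washout arrays, 223 and 226 on the Ro arrays, and 206 and 188 on the control arrays. On the scaled log2 level these were -2.29 and -2.07 in washout, -1.86 and -1.79 in Ro, and -1.87 and -1.75 in control. The Ro values fell inside the range of the control values, and both washout values lay below the other 4.

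Ro and control differed in Dapk3 by -0.016 ± 0.10 (95% interval -0.28 to 0.25, adjusted p = 0.915), a sign that turned under 3 other scalings. Washout was 1.28-fold lower than Ro, by -0.36 ± 0.10 (95% interval -0.62 to -0.095), just past the threshold (adjusted p = 0.043). The call depended on the arrays used. It was lost without control 1 or control 2 (adjusted p = 0.064 each), without Ro 1 (0.128), without Ro 2 (0.181) and without washout 1 (0.126), and it held only without washout 2 (adjusted p = 0.029, -0.46). Against control, washout was lower by -0.37 ± 0.10 (95% interval -0.63 to -0.11), which did not pass (adjusted p = 0.089) although the arrays did not overlap, where 5.97% of features were called lower. Meningeal fibroblast markers moved with this last difference: 6 of 7 were lower in washout than in control, with a summed level of 10.2 to 10.4 in washout, 15.2 to 15.9 in Ro and 17.5 to 22.6 in control. In Ro against control, where Dapk3 was level, 5 of these 7 markers were already lower and 1 was higher, beside 22.7% and 19.4% of all features. Their part in the Dapk3 values was not tested.

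**Figure D1:**
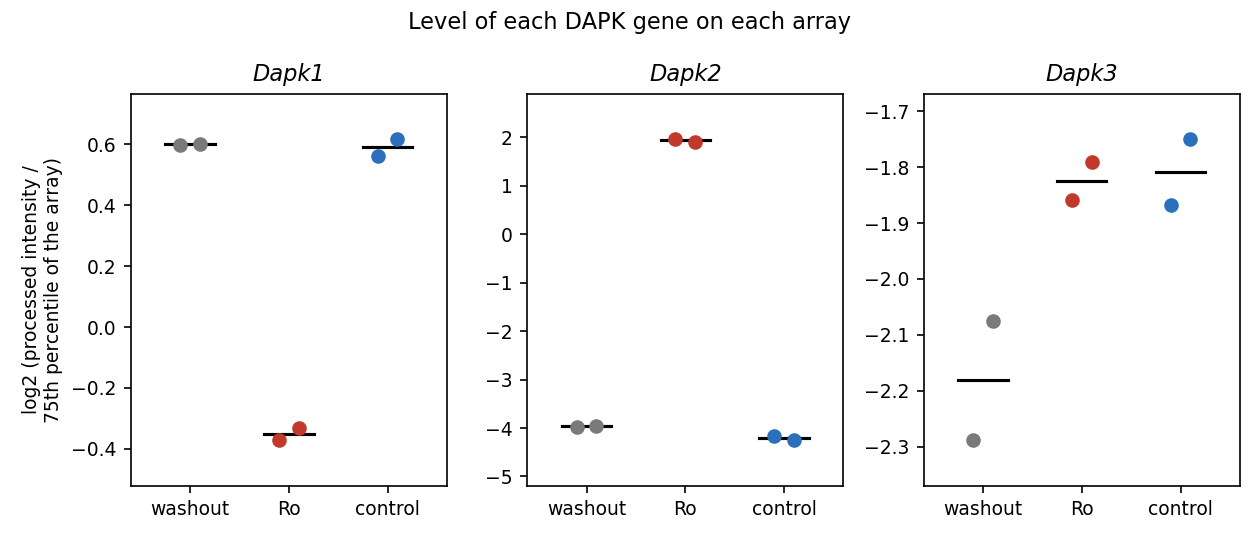
Log2 level of each gene on each array, as processed intensity over the array's 75th percentile, with points for arrays and lines for the group means (n = 2 each), and a vertical axis of its own for each gene. Dapk2 is high on both Ro arrays (1.97 and 1.91) and low on the other 4, Dapk1 is low on both Ro arrays (-0.37 and -0.33), and Dapk3 is low on both washout arrays (-2.29 and -2.07).

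**Figure D2:**
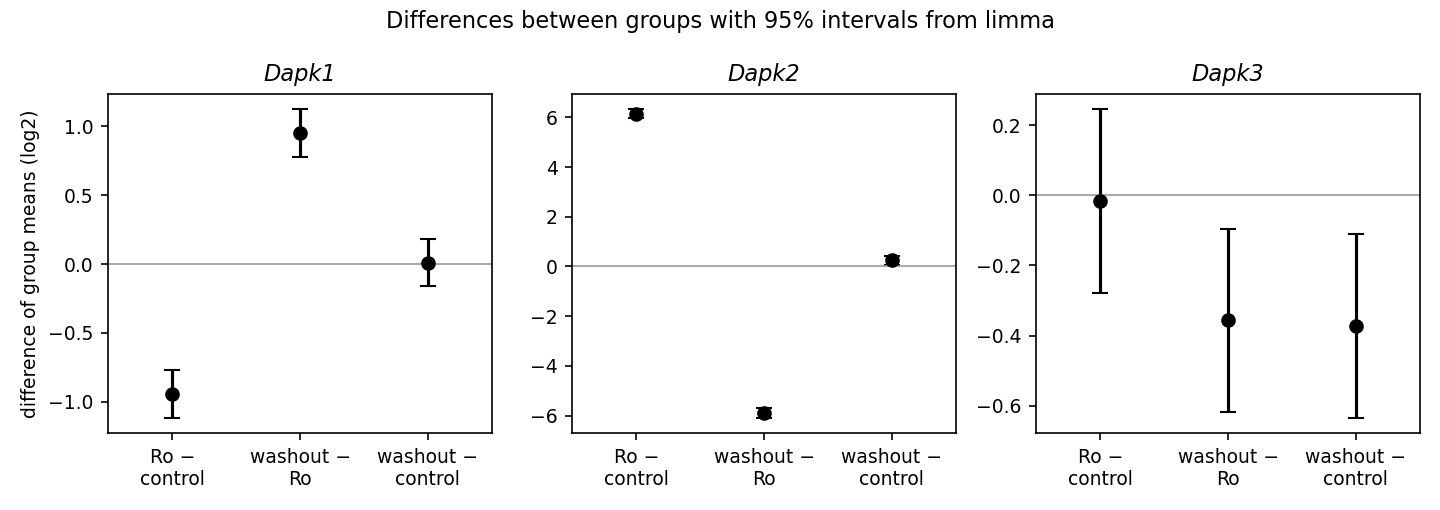
Difference of group means (log2) for Ro minus control, washout minus Ro and washout minus control, with 95% intervals from limma and a vertical axis of its own for each gene. The comparisons share arrays, and the Dapk2 intervals in Ro minus control (6.15) and washout minus Ro (-5.90) show spread only, since the Ro values chose the gene. Dapk1 lies at -0.94, 0.95 and 0.011, and Dapk3 at -0.016, -0.36 and -0.37.

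The plot of levels by array and the plot of differences show 3 different orders within 1 family. Dapk2 was highest in Ro, then washout, then control. Its washout and control levels were not separated by the test, and the control arrays had also entered the choice of the gene. Dapk1 was lowest in Ro, with overlapping washout and control arrays. Dapk3 was lowest in washout, with overlapping Ro and control arrays. The comparisons share arrays, so that the sets of values are not independent of each other, and the difference between one paralogue's change and another's was not tested. Intensities of different probes cannot be compared, so that no order of abundance among the 3 kinases is given.

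The genes whose patterns over the 6 arrays came closest to each kinase were found by Euclidean distance between mean-centred log2 levels among 13051 other genes. Closest to Dapk2 was Notum, which encodes a secreted enzyme that inactivates Wnt proteins, at a distance of 0.427 (r = 0.999 over 6 arrays). Notum differed by 5.96 between Ro and control, -5.52 between washout and Ro, and 0.44 between washout and control. Next were Trpm1, a cation channel gene, at 0.515, Esyt3, an extended synaptotagmin gene, at 0.530, Rnf43, a ubiquitin ligase gene that removes Wnt receptors, at 0.780, and Dio2, which activates thyroid hormone, at 0.845. Trpm1 was not well above background in washout or control, so that its level in Ro was at least 9.69-fold that in washout and at least 14.7-fold that in control. Esyt3 was above background on 1 of 2 washout and 1 of 2 control arrays, so that its differences between Ro and control, 6.60 on the probe used and 2.98 on its other probe, set Ro against a level partly at the floor. Among these 5 genes the longer TCF/LEF motifs stood in 1 of 2 Trpm1 windows, 0 of 1 Esyt3 window, 0 of 2 Rnf43 windows and 0 of 1 Dio2 window. Notum had no window to search.

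The nearest patterns to Dapk1 were those of Hs6st1, a heparan sulfate sulfotransferase gene (distance 0.0565, r = 0.999), Anxa2, a calcium-dependent phospholipid-binding protein (0.0909), Bmerb1 (0.0987), Arhgap15, a Rac GTPase-activating protein (0.108), and Epb41l4a (0.109). Hs6st1 differed by -0.91 between Ro and control and by 0.95 between washout and Ro, and both Anxa2 probes gave -0.91 and -0.92 for Ro minus control. The other Epb41l4a probe gave -0.28, and Arhgap15 was not well above background in washout or Ro. For Dapk3 they were Zranb2, a splicing factor gene (0.0580, r = 0.992), Cd44, the hyaluronan receptor (0.0734), Runx3 (0.0930), Stxbp5 (0.0978) and Atg2b, an autophagy lipid transfer gene (0.108). The differences of these genes between Ro and control spanned only -0.029 to 0.030 on the probes used. Their other probes that passed the filter gave 0.40 for Atg2b, 0.11 for Cd44, and 0.011, 0.23 and -0.26 for Stxbp5. All of these genes were picked for their likeness over the same 6 arrays, and no test of it is given.

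**Figure D3:**
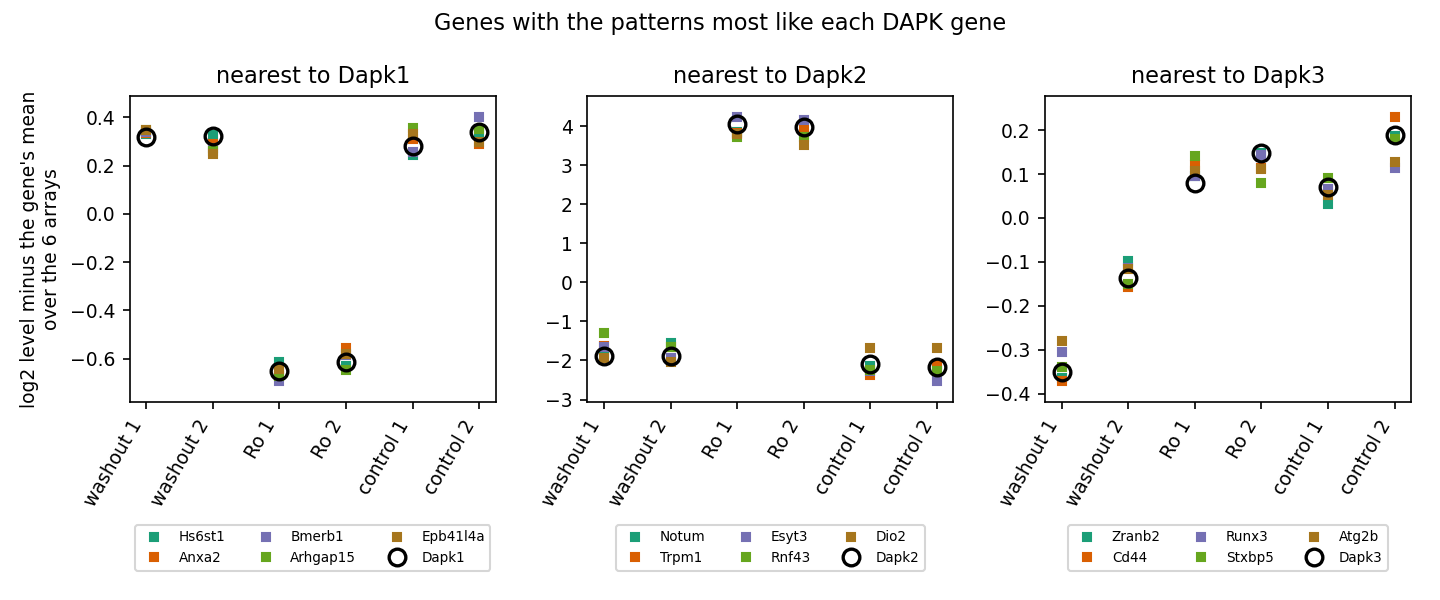
Log2 level minus the gene's mean over the 6 arrays for each kinase (open circles) and the 5 genes nearest to it in pattern (coloured squares), with arrays along the horizontal axis and a vertical axis of its own in each panel. The squares lie close to the circles because they were chosen for it, at distances of 0.427 to 0.845 for Dapk2, 0.0565 to 0.109 for Dapk1 and 0.0580 to 0.108 for Dapk3.

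The genes beside each kinase on the chromosome, taken as the 3 protein-coding genes on each side in RefSeq's GRCm38.p6 order, did not share the size of the Dapk2 rise. On chromosome 9, Snx1, a sorting nexin gene, was higher in Ro than in control by 0.43 ± 0.08 (adjusted p = 0.011) and Ciao2a, an iron-sulfur assembly gene, by 0.35 ± 0.10 (adjusted p = 0.044), while Snx22 (0.16) and Fbxl22 (1.27, adjusted p = 0.064), which was dim in control and washout, did not pass. The Snx1 call was lost without control 1 (adjusted p = 0.052), Ro 1 (0.074) or Ro 2 (0.062). The Ciao2a call held only without control 1 (adjusted p = 0.031) and was lost without any other single array (0.063 to 0.189). No named probe covered Gm30447 or Herc1.

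On chromosome 13, Gas1, a growth arrest gene next to Dapk1, was lower in Ro by 1.81 ± 0.11 (adjusted p = 0.00040) and higher in washout than in Ro by 1.70 ± 0.11 (adjusted p = 0.00046), the same signs as Dapk1. Isca1 (0.13), Tut7 (0.034) and BC051665 (0.14) did not pass. On chromosome 10, Eef2, translation elongation factor 2, was higher in Ro than in control by 0.52 ± 0.07 (adjusted p = 0.0036) and lower in washout than in Ro by 0.52 ± 0.07 (adjusted p = 0.0037). Nmrk2 was lower in Ro by 1.53 ± 0.44 (adjusted p = 0.042), a call lost without control 1, control 2, Ro 1 or Ro 2 (adjusted p = 0.079 to 0.158), and Zbtb7a (-0.15) and Pias4 (0.50) did not pass.

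Genes of proteins known to bind, regulate or be phosphorylated by the kinases changed in both directions. Of 38 listed genes 37 were tested, and in Ro against control 8 rose, 10 fell and 19 did not pass, with a median of -0.049 against 0.0040 over all features. The count of 18 in 37 stands beside the 42.1% called among all features. Stk17b, which encodes the related kinase DRAK2, had log2 levels of 1.72 and 1.73 in washout, 2.57 and 2.55 in Ro, and 1.58 and 1.50 in control. The Ro arrays were the highest, and Stk17b rose by 1.02 ± 0.07 (adjusted p = 0.00057) and was lower after washout than in Ro by 0.84 ± 0.07 (adjusted p = 0.00095).

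Pawr, whose product Par-4 binds DAPK3 and promotes cell death, had log2 levels of -1.34 and -1.20 in washout, -2.36 and -2.34 in Ro, and -1.55 and -1.52 in control. It was lowest on the Ro arrays and fell by 0.82 ± 0.08 (adjusted p = 0.0016). The RSK kinases, which phosphorylate DAPK1, went opposite ways. Rps6ka3 rose by 1.10 ± 0.09 (adjusted p = 0.00099), whereas Rps6ka1 fell by 0.96 ± 0.09 (adjusted p = 0.0016), with its other probe at -0.29. Klhl20, the adaptor through which DAPK1 is ubiquitinated, differed by -0.22 ± 0.09 (adjusted p = 0.093). The netrin receptor gene Unc5b (-0.07 ± 0.13, adjusted p = 0.692) and the autophagy gene Becn1 (0.17 ± 0.11, adjusted p = 0.251), whose products are a partner and a substrate of DAPK1, also missed the threshold. Itprip had no named probe and was not tested.

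In washout against Ro, where 41.5% of all features were called, 8 of the 37 partners rose and 9 fell (median 0.0077 against -0.020 over all features), and in washout against control 1 rose and 3 fell (median -0.047 against -0.011, with 10.1% of all features called). The riser was Atf4, a stress-response factor that binds ZIP kinase, at 0.55 ± 0.07 (adjusted p = 0.019). Those that fell were Unc5b at -0.79 ± 0.13 (adjusted p = 0.029), Rps6ka1 at -0.44 ± 0.09 (adjusted p = 0.0499) and Map1b, a microtubule protein that binds DAPK1, at -0.42 ± 0.09 (adjusted p = 0.047), the last named after its value was seen. The other Map1b probe gave 0.12, of opposite sign, and the mean of both gave -0.15 (adjusted p = 0.311). All 4 calls depended on each array: leaving out any 1 of the 6 raised the adjusted p to 0.052 to 0.089 for Atf4, 0.060 to 0.103 for Unc5b, 0.096 to 0.180 for Rps6ka1 and 0.053 to 0.174 for Map1b.

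Of 32 other calmodulin-regulated and related kinase genes 27 were tested, and in Ro against control 5 rose, 12 fell and 10 did not pass (median -0.25), where 19.4% of all features were called higher and 22.7% lower. Camkv, which encodes a kinase-like protein without activity, was not well above background in control and was at least 9.51-fold higher in Ro. It passed the filter only through Ro, the group where it is high, so that the filter favoured its call as higher. Dclk3, a doublecortin-like kinase gene, was not well above background in Ro, where it was at least 2.26-fold lower than in control. Washout was at least 2.58-fold above Ro. The gene passed the filter only through washout and control, where it is high, so that the filter favoured both calls. Pnck, a CaM kinase I gene, fell by 1.95 ± 0.07 in Ro (adjusted p = 0.00016) and was still lower in washout than in control by 1.04 ± 0.07 (adjusted p = 0.0066). The other 4 risers in Ro, named after their values were seen, were Mylk (1.00), Mknk2 (0.35), Mapkapk2 (0.32) and Camkk1 (0.23). Without single arrays the adjusted p reached 0.088 for Mknk2, 0.124 for Mapkapk2 and 0.191 for Camkk1, and the other Mylk probe gave -0.56. In washout against Ro 9 of the 27 rose and 7 fell (21.4% and 20.1% of all features), and in washout against control 0 rose and 5 fell (4.13% and 5.97%). Besides Pnck these were Camk2b (-0.75), Camkk1 (-0.74), Mylk (-0.57) and Mylk2, which was not well above background in washout and at least 1.67-fold lower there than in control. All but Pnck were named after their values were seen, and without single arrays their adjusted p reached 0.074, 0.064, 0.103 and 0.127 in the same order. Mylk2 passed the filter only through Ro and control, where it is higher, so that the filter favoured its call as lower.

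Myosin light chain regulation, the process on which DAPK3 acts, leaned towards lower levels in Ro. Of 22 tested genes 14 fell, 1 rose and 7 did not pass (median -0.40), beside 22.7% called lower and 19.4% called higher among all features. Cnn1, an actin-binding smooth muscle calponin, fell by 1.89 ± 0.09 (adjusted p = 0.00024), and Ppp1r14b, an inhibitor of myosin phosphatase, was the riser at 0.67 ± 0.07 (adjusted p = 0.0018). In washout against Ro 11 were called higher and 2 lower, where 21.4% and 20.1% of all features were. Of these 2, Ppp1r14b fell by 0.75 (adjusted p = 0.0012), while Ppp1r14a was not well above background in either group, so that its call stands for no measured difference. Against control 0 rose and 1 fell, where 4.13% and 5.97% of all features were called higher and lower. The last was Ppp1r14a, another myosin phosphatase inhibitor, not well above background in washout and at least 1.35-fold lower than in control. It passed the filter only through control, the group where it is high, so that the filter favoured its call as lower. Without the filter on dim probes the call was lost (limma, adjusted p = 0.052). The pericyte and smooth muscle markers given above moved in the same direction as this list, and their part in it was not tested.

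Apoptosis genes were split. Of 34 tested, 9 rose and 8 fell in Ro (median 0.11), close to the 42.1% called among all features, with the mitochondrial flavoprotein gene Aifm1 up by 1.02 ± 0.07 (adjusted p = 0.00059) and the BH3-only gene Bbc3 down by 1.33 ± 0.09 (adjusted p = 0.00056). In washout against Ro 6 rose and 9 fell, where 41.5% of all features were called, and in washout against control 0 rose and 4 fell, where 10.1% were. These were Bbc3 (-0.88, adjusted p = 0.012, and 0.068 without control 2) and, named after their values were seen, Bcl2l11 (-0.62), Birc3 (-0.50) and Tnfrsf10b (-0.43). Without any single array Birc3 and Tnfrsf10b missed the threshold (adjusted p = 0.057 to 0.089 and 0.051 to 0.162), and Bcl2l11 kept it in 1 of 6 such fits (adjusted p = 0.0499 to 0.083). Of 33 autophagy genes 4 rose and 12 fell in Ro (median -0.12), beside 19.4% called higher and 22.7% called lower among all features. The autophagy receptor gene Optn rose by 0.96 ± 0.08 (adjusted p = 0.0012) and Wipi1, which binds lipids of the forming autophagosome, fell by 0.88 ± 0.09 (adjusted p = 0.0017). The other 3 risers, named after their values were seen, were Gabarap (0.39), Sqstm1 (0.35) and Atg3 (0.32), whose adjusted p reached 0.098, 0.125 and 0.145 without single arrays. In washout against Ro 12 of the 33 were called higher and 5 lower, where 21.4% and 20.1% of all features were. The 5 were Optn, Sqstm1, Becn1, Atg2b and Gabarap. Without single arrays the call was lost in 6 of 6 fits for Gabarap (adjusted p = 0.068 to 0.216), and held in 1 of 6 for Becn1 (0.034 to 0.177), 1 of 6 for Atg2b (0.031 to 0.159) and 4 of 6 for Sqstm1 (0.022 to 0.091). In washout against control none of the 33 passed in limma, where 10.1% of all features did.

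**Figure D4:**
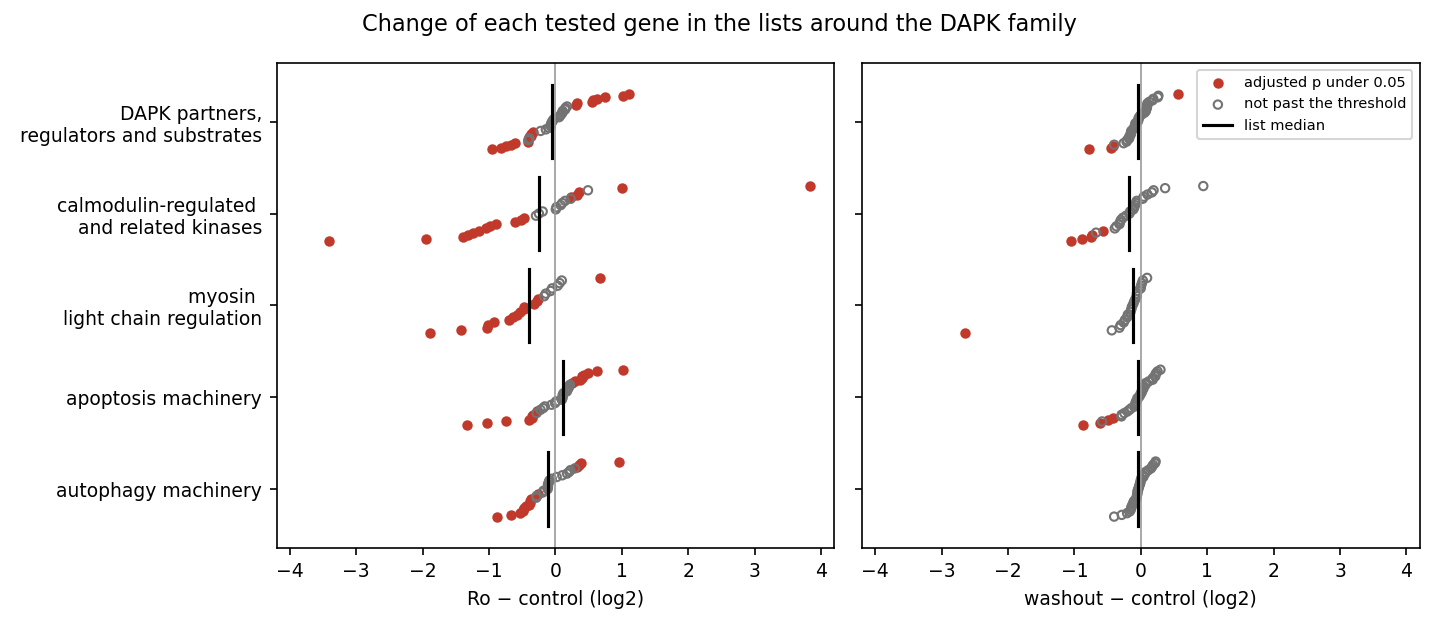
Difference (log2) of every tested gene in 5 lists around the family, for Ro minus control and washout minus control, with filled points for adjusted p under 0.05 from limma, open points for the rest and a black line at the list median. Myosin light chain genes lie mostly below 0 in Ro minus control (14 of 22 lower, median -0.40), and few points are filled in washout minus control.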

How the data were processed

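Total RNA of 6 cultures was hybridised to 1-colour Agilent arrays, per the labels' protocols. The authors deposited scanner output with processed spot intensity, made by Feature Extraction 10.5.1.1, per the file headers, and a table of linear ratios. Each deposited ratio is relative to a value per probe whose rule is not given in the sources used here, its scale was read from the values, and after log2 it served only as an alternative. From the processed intensity of 41174 non-control probes, log2 was taken and the array's 75th percentile subtracted. Of these probes 106 were left out for faulty spots, and 26473 passed the filter, which asked for a spot well above background throughout 1 or more groups. The probe with the highest mean stood for a gene, which left 20091 features, 13052 with a symbol. Symbols came from RefSeq, matched by each probe's transcript identifier, for 61.0% of probes, and the other probes were left without a symbol.

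Linear models were fitted in limma 3.58.1 (R 4.3.3) over all 3 groups, with Benjamini-Hochberg adjustment over all features and a threshold of 0.05, and the code was tested on simulated data. Errors beside differences are standard errors of that fit. "Called" means past the threshold. A probe not well above background on both arrays of a group has only a bound there. "At least N-fold" sets the brighter mean against, per array, the higher of the dim spot and the lowest intensity well above background (15.1 to 27.3).

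The kinases and all gene lists were chosen with earlier results of these data known. Named genes were the 3 kinases, the 5 genes nearest to each in pattern, the 3 neighbours on each side, the largest called rise and fall of each list, 6 listed partners and the features ranked beside Dapk2 over all features; others are said to be named after their values were seen. Upstream sequences and gene order came from RefSeq's GRCm38.p6, while the array headers name mm9. Alternatives covered background correction, scaling, filter, probe choice, samples in the fit, replicate block and left-out arrays. Normexp used median signals, since mean signals were not used here. Arrays give no counts, so that their number limits the precision.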

Additional observations from a re-analysis of the deposited data

How the results depend on the processing

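Of the kinases' results, Dapk1 in Ro against control (-0.97 to -0.85) and in washout against Ro (0.80 to 0.97) stayed past the threshold in every alternative run. Dapk2 in washout against Ro, a description since Ro values chose the gene, spanned -6.00 to -4.58. Washout against control was past it in no alternative run for Dapk2 (0.056 to 0.30) or Dapk3 (-0.48 to -0.24). The Dapk2 rise was 4.63 with normexp and 6.10 to 6.19 without single arrays. Dapk3 in Ro against control turned to 0.026 with median centring, 0.011 with quantile scaling and 0.028 in the authors' values, and spanned -0.075 to 0.044 without single arrays. Dapk3 in washout against Ro missed the threshold with normexp (-0.19), without the filter, with only the 4 arrays compared and with the exchanged block (-0.36 each), and spanned -0.46 to -0.25 without single arrays. Dapk1 in washout against control turned to -0.057 with normexp, -0.038 with median centring and -0.051 in the authors' values, and spanned -0.018 to 0.039 without single arrays.

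Calls in washout against control numbered 2028, but 134 without the filter and 756 with only 4 arrays, and 201 to 1323 without single arrays. Ro against control gave 8460 (4526 to 8806 without single arrays) and washout against Ro 8331 (4752 to 7720). Higher calls made up 51.5% in washout against Ro, but 40.5% with median centring and 38.9% in the authors' values, and 40.9% in washout against control, but 30.8% and 29.1%. Same-numbered arrays did not deviate together (r = -0.119 to 0.0784), which cannot show whether same-numbered cultures shared a preparation. The replicate block gave 6897, 6924 and 766 calls, and the block with the Ro numbers exchanged, chosen after seeing the data, 8412, 8292 and 1658. With the mean of its probes, Camk2a turned to 0.81 in Ro against control and -1.05 in washout against Ro. The causes were not tested.

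Among the values of other named genes under these alternatives, 1359 kept direction and side, 247 lost the threshold and 2 reversed. Limits are 2 arrays a group, 1 probe a kinase and dim Dapk2 spots outside Ro.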

Other observations

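The calmodulin-dependent kinase II genes and calmodulin itself, which share their activating signal with Dapk1 and Dapk2, were named after their values were seen. In Ro against control Camk2g fell by 1.24 ± 0.07 (limma, adjusted p = 0.00034), Camk2b by 1.32 ± 0.10 (adjusted p = 0.00069) and Camk2d by 0.48 ± 0.07 (adjusted p = 0.0056). The Camk2d call was lost without Ro 1 (adjusted p = 0.0501). After washout Camk2g was higher than in Ro by 1.15 ± 0.07 (adjusted p = 0.00040). Calm3, a calmodulin gene, fell by 0.74 ± 0.12 in Ro (adjusted p = 0.0071), while Calm2 (-0.038, adjusted p = 0.702) did not pass.

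Camk2a and Mylk, the smooth muscle myosin light chain kinase gene, had probes of opposite sign. The brighter Camk2a probe was lower in Ro than in control by 1.15 ± 0.11 (adjusted p = 0.0014) and its other probe was higher by 2.77. After washout the brighter probe was higher than in Ro by 0.93 (adjusted p = 0.0026), whereas the other differed by -3.02. The brighter Mylk probe was higher in Ro than in control by 1.00 ± 0.09 (adjusted p = 0.0011), its other probe differed by -0.56, and the mean of both by 0.22 (adjusted p = 0.224). Which transcripts these probes read was not tested.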
